A study of Mus musculus with 32 samples.

Results

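The 9 genes described here encode enzymes and a carrier that shorten the side chain of bile acid precursors and join bile acids to taurine or glycine. They were taken by symbol from the deposited table of liver read counts, in which they are 9 of 54532 genes: *Slc27a5*, *Slc27a2*, *Abcd3*, *Amacr*, *Acox2*, *Hsd17b4*, *Scp2*, *Acot8* and *Baat*. All 9 passed the filter on low counts in every comparison, with between 499 and 196749 reads per gene and mouse.

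Bile acids are made from cholesterol in hepatocytes, where enzymes first change the sterol ring and then remove the end of the side chain. The acid intermediates are activated to CoA thioesters, carried into peroxisomes, turned to the stereoisomer that the oxidase accepts and shortened by a round of beta-oxidation. Conjugation to an amino acid, which in mice is nearly always taurine, completes the pathway and makes bile acids more soluble. Bile acids that return from the intestine deconjugated by bacteria are activated and conjugated again.

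Livers came from C57BL/6 mice killed at 12 weeks of age without fasting, with 4 mice in each group. The genotypes were wild type (WT) and *Cyp2c70* knockout (KO), in which CRISPR-Cas9 editing of embryos removed a stretch with exon 2 of *Cyp2c70*. The KO mice descend from 1 founder, and Cyp2c70 is the enzyme with which mouse liver makes muricholic acids. Mice ate chow alone or chow with SC-435, an inhibitor of the ileal bile acid transporter (IBAT) that keeps bile acids from being reclaimed in the intestine, at 0.006% of the diet, about 11 mg/kg/day, starting 3 weeks after weaning by the sample labels. The outline of the experiment in the paper instead has the diet change at weaning, so how long the mice were treated is uncertain. The 8 groups are therefore female and male WT mice on chow, WT mice on SC-435, KO mice on chow and KO mice on SC-435.

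Between 36476021 and 44771350 reads were counted on genes per mouse. Levels are given in CPM, reads scaled to library size after TMM normalization, which assumes that most genes keep their level. *Cyp2c70* itself was counted over the whole gene and not over the deleted exon alone. It lay between 275 and 851 CPM in the 16 WT mice and between 110 and 187 CPM in the 16 KO mice. No mouse thus contradicted its genotype label, while the labels of sex and diet are not checked by this gene. All 9 hepatocyte markers found in the table were detected in each group and summed to between 60100 and 196600 CPM per mouse. One library, male WT chow replicate 1, stood apart, with a TMM factor of 0.639 against 0.894 to 1.285 in all other mice and a mean correlation of 0.867 with its group. It was kept, and the male results that use it are given with and without it.

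Compared per kilobase of gene length, the 9 genes covered a wide range of levels. *Scp2*, whose products are the peroxisomal thiolase of the pathway and the smaller sterol carrier protein 2, stood at 835 CPM per kb as the mean of the 8 groups, and *Slc27a5*, the bile acid CoA ligase of liver, at 490 CPM per kb. *Slc27a2*, a very long-chain acyl-CoA synthetase that can also activate the sterol intermediates, followed at 284 CPM per kb. *Baat*, which transfers the amino acid, and *Hsd17b4*, the hydratase and dehydrogenase of the beta-oxidation round, were close to each other at 145 and 138 CPM per kb. The carrier *Abcd3*, which brings the CoA thioesters into peroxisomes, was at 98.0 CPM per kb, the racemase *Amacr* at 66.2 and the branched-chain oxidase *Acox2* at 56.7. The lowest was *Acot8*, a peroxisomal thioesterase that can release free bile acids from their CoA form, at 8.53 CPM per kb.

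The order differed between the sexes at its top. In each of the 4 male groups all mice had more *Scp2* than *Slc27a5* per kilobase, while in each of the 4 female groups the ranges of both genes over mice overlapped. *Slc27a2* came after both in all 8 groups, although in male KO mice on chow its range overlapped that of *Slc27a5*. *Baat* and *Hsd17b4* overlapped in 6 of the 8 groups and *Amacr* and *Acox2* were neighbours with overlapping ranges in 5. *Acot8* was below every other gene in every group.

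**Figure D1:**
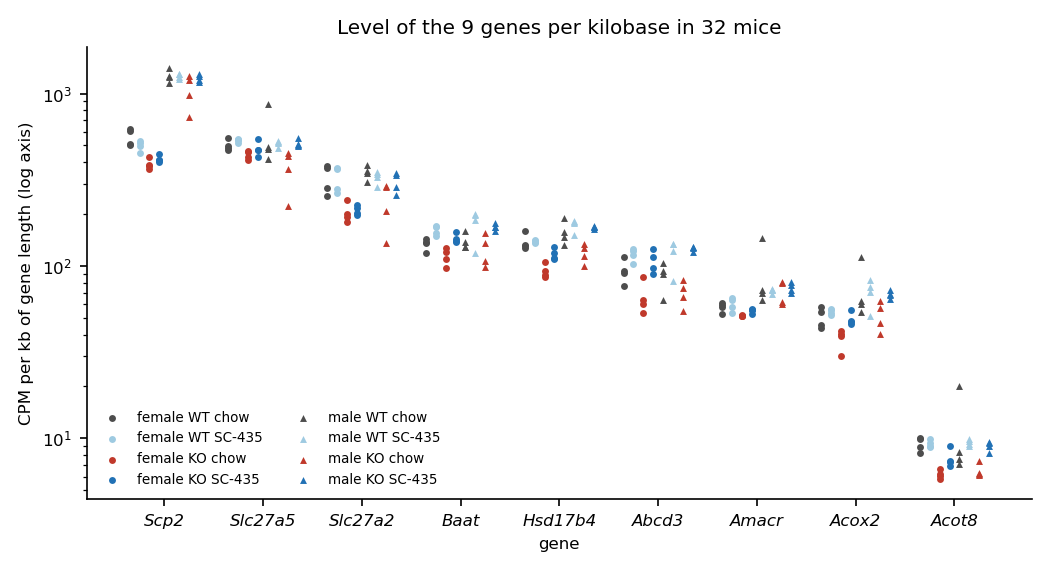
Level of each gene in CPM per kb of gene length (log axis) in the 32 mice, with circles for females, triangles for males and colors for genotype and diet. *Scp2* splits by sex, with male mice above *Slc27a5* and female mice beside it, and *Acot8* lies lowest with a mean of 8.53 CPM per kb.

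The genes lie at separate places in the genome. In GRCm38, *Slc27a5* (ENSMUSG00000030382) is on the minus strand at chr7:12988346-12998192, *Slc27a2* (ENSMUSG00000027359) on the plus strand at chr2:126552407-126588243 and *Abcd3* (ENSMUSG00000028127) on the minus strand at chr3:121758774-121815302. *Amacr* (ENSMUSG00000022244) is on the plus strand at chr15:10981756-10996626, *Acox2* (ENSMUSG00000021751) on the minus strand at chr14:8225511-8259353 while *Hsd17b4* is ENSMUSG00000024507. *Scp2* (ENSMUSG00000028603, chr4:108043839-108144998), *Acot8* (ENSMUSG00000017307, chr2:164792765-164804882) and *Baat* (ENSMUSG00000039653, chr4:49489422-49506557) are all on the minus strand. Of the exonic bases of *Acot8*, 246 (12.3%) are shared with *Snx21* on the opposite strand, which had 80.7% as many reads, and the strand setting used in counting is not given in the sources used here. Whether reads of these 2 genes were told apart in that stretch is therefore not known. *Scp2* has 9 annotated transcripts. The longest coding one, with 16 exons, starts at 108118532 and a shorter coding one of 5 exons starts at 108071419, so its gene count merges the thiolase and the sterol carrier protein.

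The sequences just before the start of *Scp2* and *Abcd3* are shown because these 2 genes varied most over the 8 groups, by sex and by diet. The 250 bases before the RefSeq start (GRCm38.p6) are chr4:108118548-108118797 for the long form of *Scp2* and chr3:121815303-121815552 for *Abcd3*, both read 5′ to 3′ on the minus strand. Capitals mark a match to AGGTCA, the core site that nuclear receptors bind.
Scp2: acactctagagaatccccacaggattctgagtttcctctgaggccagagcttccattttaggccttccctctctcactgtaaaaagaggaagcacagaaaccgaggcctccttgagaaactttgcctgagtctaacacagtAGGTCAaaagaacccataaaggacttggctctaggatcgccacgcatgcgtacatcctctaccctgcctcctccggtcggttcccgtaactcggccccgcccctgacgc
Abcd3: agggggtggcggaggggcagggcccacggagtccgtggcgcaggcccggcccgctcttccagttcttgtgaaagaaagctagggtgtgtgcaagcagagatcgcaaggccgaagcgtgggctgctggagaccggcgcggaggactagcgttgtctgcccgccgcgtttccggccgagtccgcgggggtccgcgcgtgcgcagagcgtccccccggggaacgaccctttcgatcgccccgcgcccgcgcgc
The *Abcd3* window is 72.0% G and C and the *Scp2* window 53.6%. Both strands were searched for 7 motifs chosen after the expression data were known. They were this core site itself, its direct and its inverted repeat with 1 free base between the copies, the STAT5 site TTCNNNGAA, the CCAAT box, the E-box with the letters CACGTG, and the TATA box with the letters TATAAA. Both repeats contain the core site. The *Scp2* window held only the core site, at position -109 from the start, and the *Abcd3* window held none of the 7. Among 32851 mouse promoter windows of this length, 14% held the core site, 0.0335% the direct and 0.00609% the inverted repeat, 7.02% the STAT5 site, 33.8% the CCAAT box, 6.02% the E-box and 12.4% the TATA box.

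Female KO and WT mice on chow were compared first, for the difference that goes with loss of *Cyp2c70* without SC-435. All 9 genes had a lower fitted level in female KO than in female WT mice on chow, and 4 of them, *Slc27a2*, *Hsd17b4*, *Scp2* and *Acot8*, fell past the threshold (adjusted p under 0.05 by the quasi-likelihood test of edgeR, with p-values of 16205 genes adjusted after Benjamini-Hochberg). By this rule, 14.9% of all genes were called and 5.05% were called lower. In 7 of the 9 genes, every KO mouse was below every WT mouse on the TMM scale, as it was for 10.5% of all genes. Only *Hsd17b4* and *Scp2* kept this separation in CPM of the library total, for which the share of all genes is not given here. The median log2 fold change of the 9 genes was -0.48, beside -0.02 over all genes, and 0 of the 9 were called with a log2 fold change beyond 1, as 6.68% of all genes were. With library totals in place of TMM, the median of all genes moved to 0.17, *Amacr* and *Slc27a5* turned to 0.05 and 0.03, and 2 genes were called lower. Because liver tissue with mixed cell types was sequenced, a lower level can come from fewer cells of a type or from less RNA per cell. These cannot be told apart.

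Of the CoA ligases, *Slc27a2* was at 959, 1064, 1423 and 1392 CPM in the female WT mice and at 903, 755, 722 and 677 CPM in the female KO mice. On the TMM scale the groups did not overlap, although the WT mice themselves fell into a lower and a higher pair. The groups overlapped in CPM of the library total. *Slc27a2* fell by 0.64 on the log2 scale (standard error, SE, 0.16, adjusted p = 0.0228, edgeR with Benjamini-Hochberg adjustment), to 0.642 times the WT level. *Slc27a5*, the ligase that acts on mature bile acids, was at 1154 to 1346 CPM in WT mice and 1007 to 1131 CPM in KO mice. That difference, -0.16 with a 95% interval of -0.36 to 0.03, did not pass the test (adjusted p = 0.306, edgeR).

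Peroxisomal import and the first steps inside the organelle followed the same direction with less certainty. *Abcd3* was at 505, 601, 739 and 615 CPM in female WT mice and at 350, 395, 417 and 572 CPM in female KO mice. Its ranges overlapped through KO replicate 4, and the difference of -0.48 (SE 0.17, adjusted p = 0.0761, edgeR) missed the threshold, which it passed at -0.61 (adjusted p = 0.0135) without that mouse. *Acox2*, the oxidase that opens the beta-oxidation round, was at 162 to 213 CPM in WT and 112 to 156 CPM in KO mice, a difference of -0.39 (SE 0.13, adjusted p = 0.0741, edgeR). *Amacr* was at 138 to 158 CPM in WT mice and at 134 to 135 CPM in all 4 KO mice, a difference of -0.14 with a 95% interval of -0.31 to 0.02 (adjusted p = 0.283, edgeR).

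The later enzymes of the round fell. *Hsd17b4* was at 430, 446, 543 and 453 CPM in female WT mice and at 301, 295, 320 and 358 CPM in female KO mice, with no overlap. Its log2 fold change was -0.53 (SE 0.11, adjusted p = 0.0113, edgeR with Benjamini-Hochberg adjustment). *Scp2*, the thiolase gene, was at 1766, 1753, 2174 and 2120 CPM in WT mice and at 1273, 1314, 1345 and 1489 CPM in KO mice. The lowest WT mouse was above the highest KO mouse, and *Scp2* fell by 0.51 (SE 0.11, adjusted p = 0.017, edgeR). *Acot8* was at 16.4, 19.7, 20.2 and 17.9 CPM in WT and 13.3, 11.7, 12.4 and 12.1 CPM in KO mice, a fall of 0.56 (SE 0.10, adjusted p = 0.0066, edgeR), the smallest adjusted p of the 9. *Snx21*, which shares bases with it, was at 10.8 to 16 CPM of the library total in WT and 11.6 to 23.6 CPM in KO mice. *Baat*, the conjugating enzyme, was at 230 to 277 CPM in WT and 190 to 248 CPM in KO mice. The ranges overlapped and the difference of -0.21, with a 95% interval of -0.43 to 0.005, did not pass (adjusted p = 0.225, edgeR).

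Single mice decided some of these calls. *Hsd17b4* and *Acot8* passed in all 8 fits without 1 mouse. *Scp2* lost its call without WT replicate 3 (adjusted p = 0.0521) or KO replicate 2 (adjusted p = 0.0663), and *Slc27a2* without WT replicate 3 or 4 or KO replicate 2 or 3 (adjusted p up to 0.0784). The number of genes called lower then ran from 2 to 5. With library totals *Scp2* and *Slc27a2* were the genes that lost their call (adjusted p = 0.0707 and 0.0944), while *Acox2* and *Abcd3* gained one by DESeq2 (adjusted p = 0.0386 and 0.0308) and with the 4 female groups in 1 edgeR fit (0.0191 and 0.0282), which made 6.

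**Figure D2:**
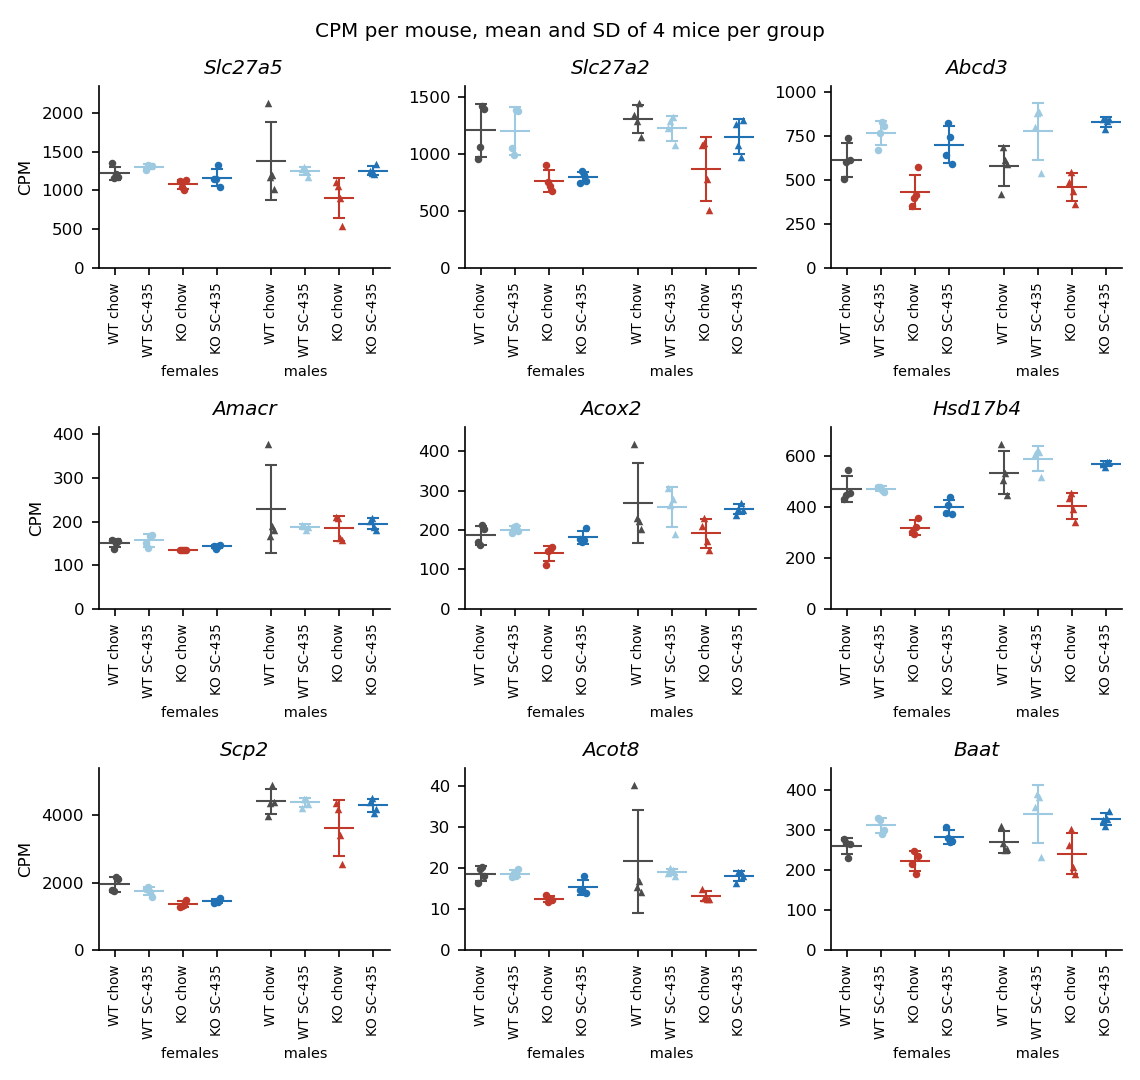
CPM of each gene in every mouse (points), with the mean (long bar) and SD (error bar) of the 4 mice in each of the 8 groups, females left and males right, on axes that start at 0. The female KO mice on chow have the lowest mean of the 8 groups for 8 of the 9 genes, and the single high point in the male WT mice on chow for *Slc27a5*, *Amacr*, *Acox2* and *Acot8* is replicate 1.

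Other genes of the same pathway and organelle were counted in the same fit. Of 9 enzymes tested that act on the sterol ring or hydroxylate the side chain, 6 fell and 0 rose, with a median of -0.71. The largest falls were those of *Cyp8b1*, the sterol 12-hydroxylase, at -3.22, *Cyp46a1*, a cholesterol 24-hydroxylase, at -1.75, and *Cyp7b1*, the oxysterol 7-hydroxylase, at -1.56. Of 23 other genes of peroxisomal fatty acid oxidation, 8 fell and 0 rose, led by the carnitine acetyltransferase *Crat* at -1.07, the isomerase *Ech1* at -0.94 and the isomerase *Eci2* at -0.86, with a median of -0.42. Of 16 peroxins, which build peroxisomes, 3 fell and 0 rose (median -0.27), namely *Pex11a* at -1.17, *Pex19* at -0.38 and *Pex6* at -0.37. Of 9 genes for taurine supply and relatives of *Baat*, 0 fell and only the taurine transporter *Slc6a6* rose, by 0.76. Of 8 other acyl-CoA synthetases, only *Acsl1* changed, at -0.77. The medians of all 5 lists lay below the -0.02 of all genes.

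Markers of other cell types moved in the opposite direction in the same mice. The summed level of 10 cholangiocyte markers was 42.0 to 76.6 CPM in female WT mice on chow and 164 to 367 CPM in female KO mice on chow, and 7 of 9 tested rose. Macrophage markers rose in 9 of 10 (469 to 577 against 798 to 1165 CPM) and stellate cell and fibroblast markers in 6 of 10 (231 to 309 against 387 to 929 CPM). Hepatocyte markers fell in 5 of 9, from 105100 to 131000 CPM in WT mice to 67080 to 86880 CPM in KO mice. T and B lymphocyte markers summed to at most 18.9 CPM in both groups, with 1 of 10 higher. Every marker of these lists was detected in both groups, and their part in the lower levels of the 9 genes was not tested.

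IBAT inhibition in female KO mice was compared next. All 9 genes had a higher fitted level with SC-435 than on chow, and 3 of them, *Abcd3*, *Hsd17b4* and *Baat*, rose (edgeR with Benjamini-Hochberg adjustment over 16332 genes). Of all genes, 17.8% were called and 8.56% were called higher. In 6 of the 9 genes all treated mice were above all chow-fed mice on the TMM scale, as for 11.8% of all genes. Only *Abcd3* kept this separation in CPM of the library total. The median of the 9 was 0.28, beside -0.02 over all genes. With library totals, the median of all genes moved to -0.18, *Amacr*, *Scp2*, *Slc27a5* and *Slc27a2* turned to between -0.13 and -0.06, and 1 gene was called. These mice share their chow-fed KO controls with the comparison above, so the opposite directions of both comparisons are not independent.

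The carrier *Abcd3* changed most, from 350, 395, 417 and 572 CPM on chow to 645, 824, 748 and 589 CPM with SC-435. No treated mouse was as low as a chow-fed one, and the log2 fold change was 0.68 (SE 0.16, adjusted p = 0.0188, edgeR), a ratio of 1.60. *Baat* was at 214, 248, 190 and 233 CPM on chow and at 307, 280, 268 and 271 CPM with SC-435, a rise of 0.33 (SE 0.10, adjusted p = 0.0382, edgeR). *Hsd17b4* was at 376, 406, 437 and 374 CPM with SC-435 against 295 to 358 CPM on chow, a rise of 0.31 (SE 0.09, adjusted p = 0.0485, edgeR). Those groups did not overlap either on the TMM scale, but both calls were close to the threshold. *Hsd17b4* lost its call in 7 of 8 fits without 1 mouse (all but the one without KO chow replicate 4) and *Baat* in 6 of 8, with adjusted p up to 0.134 and 0.109, and both lost it with library totals (adjusted p = 0.185 and 0.202). *Abcd3* lost its call without KO chow replicate 2 or KO SC-435 replicate 2 or 3 (adjusted p up to 0.0637), and the number of genes called ran from 0 to 4.

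*Acox2*, at 170 to 205 CPM with SC-435 against 112 to 156 CPM on chow, differed by 0.36 (SE 0.11, adjusted p = 0.0517, edgeR) and was called at 0.41 without KO chow replicate 4 (adjusted p = 0.023). *Acot8*, at 13.7 to 17.9 against 11.7 to 13.3 CPM, differed by 0.28 (SE 0.10, adjusted p = 0.0889, edgeR). *Amacr* was at 138 to 146 against 134 to 135 CPM, so its groups did not overlap although it differed by only 0.07 (adjusted p = 0.473, edgeR). The other 3 genes were not called either. *Scp2* was at 1388 to 1542 against 1273 to 1489 CPM, a difference of 0.08 with a 95% interval of -0.10 to 0.26. *Slc27a2* differed by 0.04 (-0.18 to 0.26) and *Slc27a5* by 0.10 (-0.10 to 0.30), with overlapping groups for both.

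Of the other lists in this comparison, 7 of 9 ring and hydroxylation enzymes rose, led by *Cyp8b1* at 5.0, the rate-limiting *Cyp7a1* at 3.45 and *Cyp46a1* at 1.34. Of 23 peroxisomal oxidation genes, 6 rose and 0 fell (among them *Crat* at 0.87 and *Ech1* at 0.64), and of 16 peroxins 6 rose and 0 fell (*Pex16* 0.62, *Pex19* 0.51, *Pex14* 0.41). Among 9 genes for taurine supply and relatives of *Baat*, 2 rose and 3 fell, with *Csad*, the decarboxylase of taurine synthesis, at 2.82, *Acnat2*, an acyltransferase related to *Baat*, at -0.85 and *Slc6a6* at -0.73. Of 8 other acyl-CoA synthetases, 4 rose (*Acsl3* 1.19, *Acsl4* 0.96, *Acsl5* 0.90). The list medians were 0.82, 0.34, 0.22, -0.11 and 0.27 in this order. All 10 macrophage markers, 4 of 9 cholangiocyte, 5 of 10 stellate cell and fibroblast and 1 of 10 lymphocyte markers fell with SC-435, and of 9 hepatocyte markers 1 fell. In female KO mice on SC-435 cholangiocyte markers summed to 108 to 156 CPM and hepatocyte markers to 91000 to 105500 CPM, and their part in the rises was not tested.

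In female WT mice, 0 of the 9 genes passed the test between SC-435 and chow (edgeR, 4.28% of 15739 genes called). An unadjusted p under 0.05 was reached by 2 (19.8% of all genes). DESeq2 called 1, and the share of all genes it called is not given here. The largest differences were those of *Abcd3* and *Baat*. *Abcd3* was at 674 to 830 CPM with SC-435 and 505 to 739 CPM on chow, a difference of 0.33 (SE 0.12, adjusted p = 0.167, edgeR). *Baat* was at 330, 325, 289 and 300 CPM with SC-435 and at 277, 268, 230 and 265 CPM on chow. No mouse on SC-435 was as low as one on chow, and the difference of 0.26 (SE 0.08, adjusted p = 0.117, edgeR) was the one called by DESeq2 (adjusted p = 0.0399). The other 7 genes lay between -0.16 for *Scp2* and 0.11 for *Acox2* and *Slc27a5*. In the ring and hydroxylation list, 4 of 9 rose in these mice and 0 fell, led by *Cyp7a1* at 4.28 and *Cyp8b1* at 2.43. Of peroxisomal oxidation genes 2 of 23 rose and of peroxins 1 of 16 fell.

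Whether SC-435 acted differently on these genes in KO and WT females was tested as an interaction over 16 libraries. None of the 9 passed it (0 called by edgeR and by DESeq2, and 1 at an unadjusted p under 0.05, as 19.9% of all genes), while 2.64% of 16882 genes did. The interaction was 0.35 (SE 0.21) for *Abcd3*, 0.29 (SE 0.12) for *Hsd17b4*, 0.27 (SE 0.13) for *Acot8* and 0.06 (SE 0.12) for *Baat*. A difference between the genotypes in the response of single members was therefore not shown.

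With both genotypes on SC-435, female KO mice were still lower in 3 genes, *Slc27a2*, *Scp2* and *Hsd17b4*, and all 9 fitted differences were negative (edgeR, 15869 genes, 10.9% called and 4.69% called lower). In these 3 genes the groups did not overlap on the TMM scale, as for 9.34% of all genes in this direction. The groups of *Scp2* overlapped in CPM of the library total. The median of the 9 was -0.16, and that of all genes was -0.004. *Slc27a2* was at 745, 852, 819 and 766 CPM in KO mice and at 1054, 992, 1387 and 1376 CPM in WT mice. The difference of -0.59 (SE 0.11, adjusted p = 0.011, edgeR) was called in each fit without 1 mouse. *Scp2* was at 1388 to 1542 against 1570 to 1854 CPM, a difference of -0.26 (SE 0.07, adjusted p = 0.0414, edgeR). *Hsd17b4* was at 374 to 437 against 460 to 480 CPM, a difference of -0.24 (SE 0.06, adjusted p = 0.0432, edgeR). The calls of *Scp2* and *Hsd17b4* were lost in 6 and 7 of 8 fits without 1 mouse (adjusted p up to 0.107 and 0.116) and with the 4 female groups in 1 fit (0.112 and 0.131), so that between 1 and 3 genes were called. *Acot8*, at -0.28 (adjusted p = 0.0708, edgeR), was called only without KO SC-435 replicate 3 (adjusted p = 0.0195). *Abcd3*, the gene that changed most with SC-435, differed by -0.13 with a 95% interval of -0.34 to 0.08. *Pex11a*, which drives peroxisome division, was the only peroxin called, at -0.93, and 4 of 9 ring and hydroxylation enzymes fell, led by *Cyp39a1* at -0.84. Cholangiocyte markers, 7 of 7 tested higher in KO mice, and stellate cell and fibroblast markers, 6 of 9 higher, moved along, while 0 of 10 macrophage markers were called and 1 of 9 hepatocyte markers was lower. Their part in these differences was not tested.

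**Figure D3:**
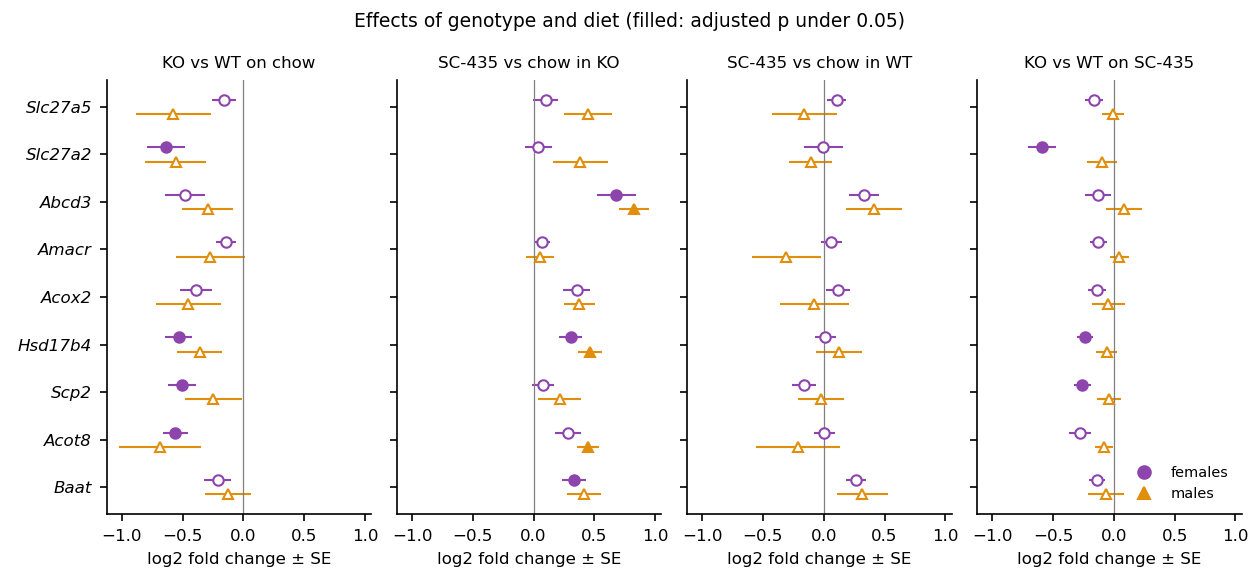
Log2 fold change ± SE of the 9 genes (ordered by their step) for genotype on chow, SC-435 in KO mice, SC-435 in WT mice and genotype on SC-435, with purple circles for females and orange triangles for males. Filled symbols mark an adjusted p under 0.05 (edgeR), which 4 genes reached for genotype on chow in females and 0 in males, and under library totals some open symbols near 0 change side.

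Chow-fed males showed the same signs without a call. On chow, all 9 fitted differences of male KO from male WT mice were negative, with a median of -0.36 beside 0.04 over all genes, and 0 were called by edgeR (1.08% of 15862 genes), by DESeq2 or at an unadjusted p under 0.05 (15.4% of all genes). With library totals, the median of all genes moved to 0.29 and *Amacr* and *Baat* turned to 0.09 and 0.15. Only for *Slc27a2* did the groups not overlap on the TMM scale (7% of all genes in this direction), and they overlapped in CPM of the library total. *Slc27a2* was at 1340, 1291, 1453 and 1153 CPM in WT mice and at 1083, 1097, 780 and 511 CPM in KO mice. The difference was -0.56 (unadjusted p = 0.054 and adjusted p = 0.334, edgeR). Its normal 95% interval of -1.05 to -0.06 leaves out 0 only because such intervals are narrower than the test. The spread was wide in both groups. WT replicate 1 had 420 CPM of *Acox2*, 379 CPM of *Amacr*, 2134 CPM of *Slc27a5* and 40.3 CPM of *Acot8*, against 202 to 231, 166 to 190, 1015 to 1200 and 14.1 to 16.7 CPM in the other 3. It also had the lowest *Abcd3* of its group, 418 CPM against 593 to 690 CPM. Its excess in the first 4 genes was smaller without the TMM factor, at 268, 242, 1363 and 25.8 CPM of the library total, and there its *Scp2* was 2555 against 4258 to 4700 CPM. Without this mouse 0 genes were called while 7.3% of 16390 genes were, the median of the 9 was -0.26, and *Amacr* turned to 0.08. *Acot8* then differed by -0.20 in place of -0.69, and *Abcd3* by -0.43 (adjusted p = 0.103, edgeR).

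Among the male KO mice on chow, each of the 9 genes was lowest in replicate 4 and next lowest in replicate 3 on the TMM scale. In CPM of the library total that order did not hold for *Amacr*, *Baat* and *Acot8*. *Slc27a5* was at 1105, 1061, 896 and 544 CPM in replicates 1 to 4 and *Scp2* at 4371, 4188, 3408 and 2543 CPM. *Hsd17b4* was at 436, 454, 390 and 339 CPM and *Baat* at 262, 302, 208 and 190 CPM. In the same mice cholangiocyte markers summed to 177, 150, 494 and 1176 CPM, macrophage markers to 451, 512, 670 and 1629 CPM and hepatocyte markers to 85270, 91710, 77410 and 60100 CPM. Replicates 3 and 4 thus had the most cholangiocyte and macrophage marker RNA of this group. On the TMM scale they also had the least hepatocyte marker RNA. Replicate 4 also had the largest TMM factor of all libraries, 1.285, and replicate 3 had a factor of 1.148. Between all male KO and WT mice on chow 5 of 9 cholangiocyte and 1 of 10 stellate cell and fibroblast markers rose, while 0 of 10 macrophage, 0 of 9 hepatocyte and 0 of 9 lymphocyte markers and none of the 5 pathway lists' genes were called. The part of these markers in the spread of the 9 genes was not tested.

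**Figure D4:**
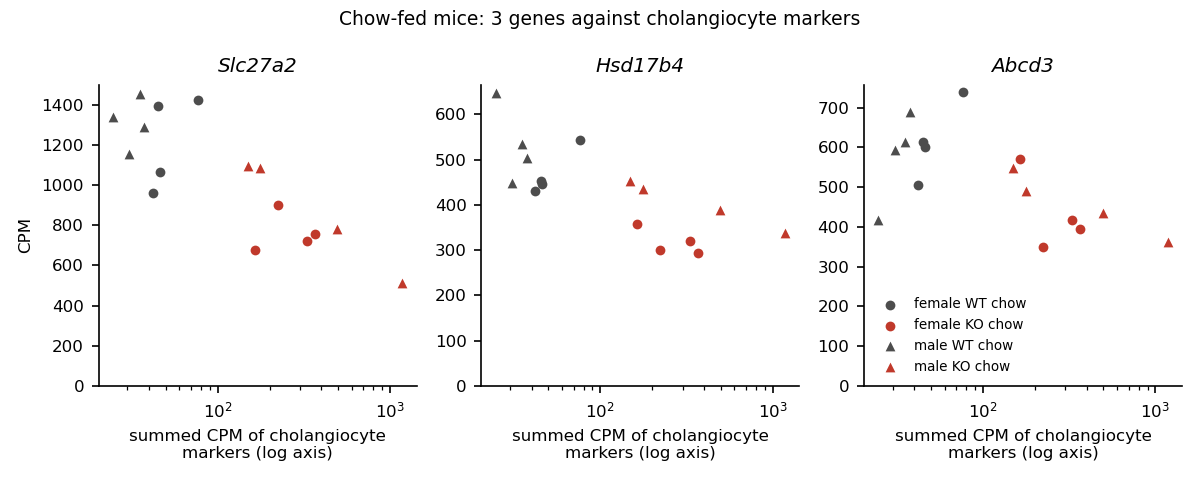
CPM of *Slc27a2*, *Hsd17b4* and *Abcd3* (axes from 0) against the summed CPM of 10 cholangiocyte markers (log axis) in the 16 chow-fed mice, for 3 genes chosen after their values were seen. All KO mice lie right of all WT mice (149.5 to 1176 against 24.8 to 76.6 CPM). Male KO replicate 4, farthest right, has the lowest *Slc27a2* at 511 CPM. The lowest *Hsd17b4* is in female KO replicate 2 (295 CPM) and the lowest *Abcd3* in female KO replicate 1 (350 CPM). Among the female KO mice, replicate 4 has the lowest marker sum (164 CPM) and also the lowest *Slc27a2* (677 CPM). The same mouse has the highest *Hsd17b4* (358 CPM) and *Abcd3* (572 CPM) of these mice.

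In male KO mice on SC-435 against chow, all 9 fitted differences were positive and 3 genes, *Abcd3*, *Hsd17b4* and *Acot8*, rose (edgeR, 15984 genes, 17.2% called and 8.8% called higher), with a median of 0.41 beside -0.03 over all genes. In 6 of 9 genes all treated mice were above all chow-fed mice on the TMM scale, as for 15.1% of all genes. Only *Abcd3*, *Hsd17b4* and *Acot8* kept this separation in CPM of the library total. With library totals, the median of all genes moved to -0.23 and *Amacr* turned to -0.13. *Abcd3* went from 491, 548, 435 and 362 CPM on chow to 849, 790, 838 and 847 CPM with SC-435. The treated mice lay close together and far above the others, and the log2 fold change was 0.83 (SE 0.13, adjusted p = 0.00457, edgeR with Benjamini-Hochberg adjustment), a ratio of 1.77 that was called in every fit without 1 mouse. *Hsd17b4* went from 339 to 454 CPM on chow to 569, 556, 575 and 577 CPM, a rise of 0.46 (SE 0.10, adjusted p = 0.0185, edgeR). *Acot8* went from 14.8, 12.6, 12.4 and 12.2 CPM to 16.4, 18.9, 19.0 and 18.0 CPM, a rise of 0.44 (SE 0.09, adjusted p = 0.0143, edgeR).

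The call of *Acot8* held in all 8 fits without 1 mouse but was lost with library totals (0.25, adjusted p = 0.107) and with the 4 male groups in 1 edgeR fit (adjusted p = 0.35, edgeR). That of *Hsd17b4* was also lost in the latter (adjusted p = 0.0626), and it was lost without KO chow replicate 3 or KO SC-435 replicate 1 or 4 (adjusted p up to 0.0609). *Baat*, at 309 to 346 CPM with SC-435 against 190 to 302 CPM on chow, differed by 0.41 (SE 0.14, adjusted p = 0.0651, edgeR). *Acox2*, at 239 to 269 against 149 to 232 CPM, differed by 0.37 (SE 0.13, adjusted p = 0.0713, edgeR). Both had no overlap on the TMM scale and were called without KO chow replicate 2 (adjusted p = 0.0212 and 0.0308, edgeR), when 5 genes passed. *Slc27a5* differed by 0.45 (SE 0.20), *Slc27a2* by 0.38 (SE 0.23), *Scp2* by 0.22 (SE 0.18) and *Amacr* by 0.05 (SE 0.11), none of them called.

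In the same male mice 12 of 23 peroxisomal oxidation genes rose and 0 fell, led by the acyl-CoA thioesterase *Acot3* at 2.11, the thiolase *Acaa1b* at 1.85 and the transporter *Abcd2* at 1.63. Of 16 peroxins 7 rose and 0 fell (*Pex11a* 1.11, *Pex16* 0.85, *Pex3* 0.56), and of 10 ring and hydroxylation enzymes 4 rose and 0 fell (*Cyp7a1* 3.83, *Cyp8b1* 2.97, *Akr1d1* 0.97). *Csad* rose by 2.95 and *Gnmt*, the glycine methyltransferase, by 1.06 as the 2 called of 9 in the taurine list. Of 8 other acyl-CoA synthetases 4 rose and *Slc27a3* fell, at -1.27. Of the markers, 7 of 9 cholangiocyte, 8 of 10 stellate cell and fibroblast and 3 of 10 macrophage markers fell, 1 of 10 lymphocyte markers rose, and 0 of 9 hepatocyte markers changed. The summed cholangiocyte level was 53.4 to 64.7 CPM with SC-435, and the part of these markers in the rises was not tested.

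In male WT mice on SC-435 against chow, 0 of the 9 genes were called by edgeR, by DESeq2 or at an unadjusted p under 0.05 (6.12% of all genes), and edgeR's adjusted p called 0.0394% of 15211 genes. *Abcd3* differed by 0.42 (SE 0.23) and *Baat* by 0.32 (SE 0.21), and without WT chow replicate 1 by 0.29 and 0.40, again with 0 called beside 2.53% of 15577 genes. Between KO and WT males on SC-435 the 9 genes lay within -0.10 for *Slc27a2* and 0.09 for *Abcd3*, with 0 called by either tool or at an unadjusted p under 0.05 (8.85% of all genes; edgeR called 0.0324% of 15434 genes). The interaction of genotype and diet in males called 0 of the 9 (0.0906% of 16555 genes), and so did those of sex with genotype on chow (0.0235% of 17026 genes) and of sex with SC-435 in KO mice (0.211% of 17069 genes). DESeq2 called 0 in each, and 0 reached an unadjusted p under 0.05, which 13.3%, 6.26% and 12.5% of all genes did. Without WT chow replicate 1, the first 2 of these still called 0 of the 9 (0.697% and 0.431% of all genes). The response of the 9 genes was therefore not shown to differ between the sexes.

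Levels differed between the sexes mainly in *Scp2*. It was at 3999, 4364, 4923 and 4387 CPM in male WT mice on chow and at 1766, 1753, 2174 and 2120 CPM in female WT mice. The lowest male was far above the highest female, and the log2 fold change of females over males was -1.20 (SE 0.18, adjusted p = 0.0118, edgeR with Benjamini-Hochberg adjustment), a ratio of 0.434. It was the only 1 of the 9 genes called, beside 1.49% of 15525 genes in either direction and 0.747% lower. Without male WT chow replicate 1 the difference was -1.24 (SE 0.12, adjusted p = 3.0e-04, edgeR, 9.53% of 15895 genes called). The call was lost without male WT chow replicate 3 or female WT chow replicate 1 or 2 (adjusted p up to 0.0685), and with library totals at -1.05 (adjusted p = 0.0531).

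The other 3 comparisons of the sexes were added after the data were seen. In KO mice on chow *Scp2* was lower in females at -1.40 (SE 0.19, adjusted p = 0.00578, edgeR, 2.73% of 16561 genes called and 1.35% lower), where the female mice had 1273 to 1489 CPM and the male mice 2543 to 4371 CPM. In WT mice on SC-435 it was lower at -1.33 (SE 0.10, adjusted p = 5.0e-05, edgeR, 7.05% of 15552 genes called and 3.85% lower), with 1570 to 1854 CPM in females and 4232 to 4494 CPM in males. In KO mice on SC-435 it was lower at -1.56 (SE 0.07, adjusted p = 1.6e-07, edgeR), with 1388 to 1542 CPM in females and 4082 to 4520 CPM in males. Male WT SC-435 replicate 4 had less *Hsd17b4*, *Baat*, *Acox2* and *Abcd3* than the other 3 mice of its group. Without it, *Hsd17b4* (-0.38, adjusted p = 0.00344), *Acox2* (-0.49, adjusted p = 0.00509) and *Baat* (-0.27, adjusted p = 0.0347) were lower in females too. In WT mice on SC-435 edgeR then called 4 genes. The share of all genes called in that fit is not given here, so these calls are not read as particular to the 9 genes. *Amacr* was called in KO mice on chow, at -0.51 (adjusted p = 0.0328, edgeR), without male KO chow replicate 4, and with all mice by DESeq2 (adjusted p = 0.0146) or with library totals (adjusted p = 0.0462, edgeR). Across all 32 mice the highest female had 2174 CPM of *Scp2* and the lowest male 2543 CPM. *Scp2* was also the only one of the 9 genes whose log2 fold change passed 1 in any of the 12 comparisons of 2 groups. In the 4 comparisons of the sexes, in the order given, 1.4%, 1.57%, 2.15% and 6.02% of all genes were called beyond that size.

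In KO mice on SC-435, 6 of the 9 genes were lower in females (26.3% of 15804 genes called and 12.8% called lower). Besides *Scp2* these were *Hsd17b4* at -0.50 (SE 0.07), *Slc27a2* at -0.52 (SE 0.10), *Acox2* at -0.46 (SE 0.08), *Amacr* at -0.44 (SE 0.07) and *Baat* at -0.20 (SE 0.07). *Amacr* was at 138 to 146 CPM in females and 182 to 209 CPM in males, and *Acox2* at 170 to 205 and 239 to 269 CPM. In all 6 the groups did not overlap on the TMM scale, as for 14.9% of all genes in this direction. The groups of *Baat* overlapped in CPM of the library total. Cholangiocyte markers, 6 of 8 higher, and stellate cell and fibroblast markers, 8 of 9 higher, were above their male level in these females, 1 of 10 macrophage markers was higher, 2 of 9 hepatocyte markers were higher and 1 lower, and 2 of 9 lymphocyte markers were lower. Their part in the differences was not tested. *Baat* lost its call in 6 of 8 fits without 1 mouse (adjusted p up to 0.128) and the other 5 kept theirs. Among other peroxisomal genes the difference went both ways, with 6 of 23 oxidation genes higher in females, led by *Acot3* at 3.76 and *Abcd2* at 1.87, and 9 lower, among them the hydrolase *Nudt7* at -1.63. Of 16 peroxins 5 were lower and 0 higher, with *Pex11a* at -1.10.

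**Figure D5:**
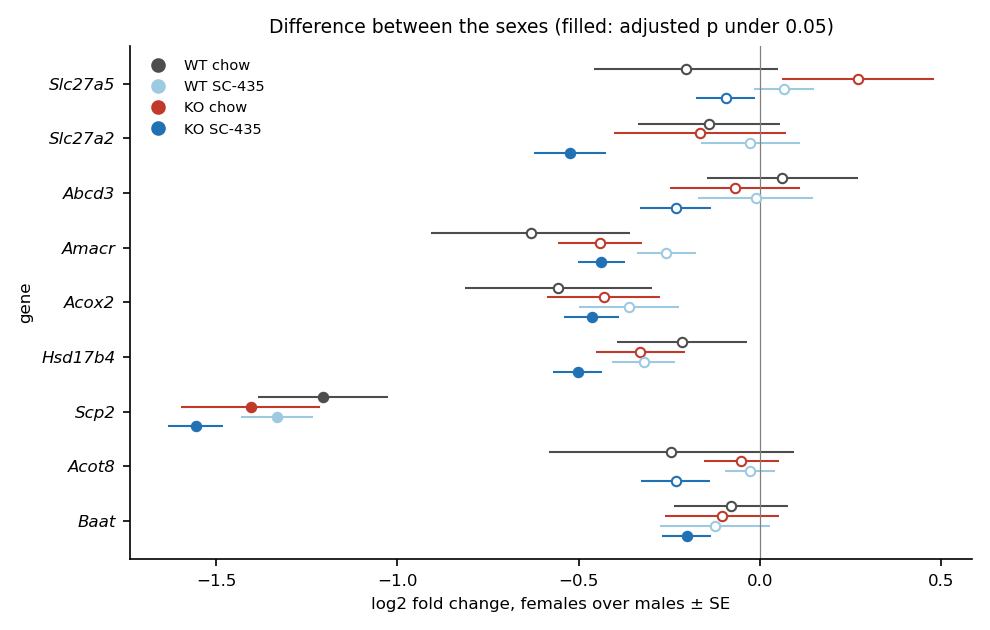
Log2 fold change of females over males ± SE for the 9 genes in the 4 combinations of genotype and diet, with filled symbols for an adjusted p under 0.05 (edgeR). *Scp2* lies between -1.56 and -1.20 in all 4, and the other genes lie between -0.63 and 0.27, where under library totals some values near 0 change side. The -0.63 is *Amacr* in WT mice on chow, which is -0.26 without male WT chow replicate 1. *Acox2* in these mice moves from -0.56 to -0.24 without that mouse.

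The genes whose pattern over the 8 groups was nearest to that of *Scp2* and *Abcd3* were found among 14204 protein-coding genes by the root mean square distance of centred group means of log2 CPM. Nearest to *Scp2* were *Cabyr* (0.17 on the log2 scale), *Kctd15* (0.18) and *C8b* (0.19). Nearest to *Abcd3* were *Ctnnbl1* and *Idh1* (0.07 each) and *Hacd3* (0.08). Their group means ran from 2.52 to 10.1 CPM for *Cabyr*, 166 to 540 CPM for *C8b* and 347 to 609 CPM for *Idh1*, while those of *Scp2* ran from 1355 to 4418 CPM and those of *Abcd3* from 434 to 831 CPM. The 8 points behind each distance are group means from the same 32 libraries.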

How the data were processed

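RNA of liver tissue, selected by poly-T, was sequenced from 32 mice. According to the submitters' processing notes, reads were aligned to mm10 with HISAT2 2.0.5 and counted per gene with featureCounts 1.5.0-p3. The authors deposited raw read counts of 54532 genes, which were used here with the deposited gene length. Deposited FPKM values and columns of the authors' own comparisons were not used.

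The 9 genes, the gene lists and the motifs were chosen with earlier results of these data known. Groups came from the sample labels. Each comparison was fitted on its own 8 libraries (16 for interactions) in edgeR 4.0.16 (R 4.3.3, limma 3.58.1) after filterByExpr and TMM, with quasi-likelihood tests and Benjamini-Hochberg adjustment over all genes tested, and called at an adjusted p under 0.05. Standard errors are the log2 fold change over the root of F, and 95% intervals are normal. With 4 mice per group such intervals are narrower than the quasi-likelihood test, so calls rest on the test alone. Named genes of other lists are the called ones with the largest log2 fold changes, at most 3 per list, and some genes are not reported here. The scripts were first tested on simulated counts. No libraries of a group agreed within sampling noise (lowest chi-square per gene 18.54). The labels do not say whether mice shared litters or cages, and the tests take the mice as independent. Alternatives were other normalizations, filters, DESeq2 1.42.0, a replicate block, all 4 groups of a sex in 1 fit and leaving out each library. Protein sequences were not used here.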

Additional observations from a re-analysis of the deposited data

Results flagged for a closer look

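Of 72 sets of 4 mice (9 genes in 8 groups), 6 held a mouse whose gap to its nearest neighbour, divided by the whole range, exceeded Dixon's 95% critical value. Chance gives about 1 in 20. Male WT chow replicate 1 accounted for 4 of them, lying above the other 3 mice in *Acox2* (0.8656), *Amacr* (0.8909), *Slc27a5* (0.8341) and *Acot8* (0.9026). It is the library with the TMM factor of 0.639, and its 10 most abundant genes took 21.3% of its reads. Male WT SC-435 replicate 4 lay below the others in *Hsd17b4* (0.8717), at 517 CPM against 606 to 619 CPM. Male KO chow replicate 1 lay above the others in *Acot8* (0.8682), at 14.8 CPM against 12.2 to 12.6 CPM. That holds on the TMM scale only, since replicate 4 of this group was above replicate 1 in CPM of the library total.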

How the results depend on the processing

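With 4 mice per group and at least 499 reads per gene and mouse, between 0 and 6 of the 9 genes were called per comparison. The 4 interactions called 0 genes under every alternative, as did the 3 male comparisons without a call. With library totals, 2 genes were called between female KO and WT mice on chow, 1 with SC-435 in female KO mice, 1 between the genotypes on SC-435 in females, 0 between the sexes in WT mice on chow and 2 in KO mice on chow. With DESeq2, 6 genes were called between female KO and WT mice on chow, and 1 was called with SC-435 in female WT mice, 5 with SC-435 in male KO mice, and 2 and 3 between the sexes in KO mice on chow and WT mice on SC-435. A filter at a mean of 50 counts gave 2 in the last of these. With the 4 groups of a sex in 1 fit, 6 genes were called between female KO and WT mice on chow, and 5 genes were called with SC-435 in female KO mice, 1 with SC-435 in male KO mice and 1 between the genotypes on SC-435 in females. For these alternatives, the replicate block and most fits without 1 mouse, the share of all genes called is not given here. A changed count is therefore not read as particular to the 9 genes. The causes were not tested.

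Replicate numbers were not taken to pair the mice, since in no comparison were all 4 correlations of same-numbered mice over 0.1. The nearest were the sexes in WT mice on chow, with 3 of 4 over 0.1 (highest 0.38), while for genotype on chow in males all 4 mice correlated best with their own number (0.03 to 0.17). With the number as a replicate block, 1 gene was called with SC-435 in female KO mice, 1 in male KO mice and 1 between the genotypes on SC-435 in females, and 0 between the sexes on chow, where *Scp2* lost its call in WT (-1.21, adjusted p = 0.0569) and KO mice (-1.38, adjusted p = 0.0707, edgeR). Under the block, *Slc27a2* with SC-435 in female WT mice turned to 0.0017 and *Abcd3* between the sexes in WT mice on SC-435 to 0.0087.

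Among the alternatives that kept all mice, signs turned mainly with library totals, all for genes without a call. For genotype on chow, *Amacr* turned to 0.0499 and *Slc27a5* to 0.0332 in females, and *Amacr* to 0.085 and *Baat* to 0.153 in males. With SC-435 in KO mice, *Amacr* (-0.0859), *Scp2* (-0.076), *Slc27a5* (-0.0622) and *Slc27a2* (-0.1251) turned in females and *Amacr* (-0.1323) in males. With SC-435 in WT mice, *Slc27a2* (0.0042) turned in females and *Acox2* (0.0967), *Scp2* (0.0499), *Slc27a5* (0.0109) and *Acot8* (0.0101) in males. *Slc27a5* turned to 0.0177 between the genotypes on SC-435 in males. Between the sexes, *Slc27a5* (0.0426), *Slc27a2* (0.0355), *Baat* (0.1114) and *Acot8* (0.0499) turned in WT mice on chow and *Slc27a2* (0.0549), *Acot8* (0.0508) and *Abcd3* (0.0674) in WT mice on SC-435.

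Without 1 mouse, 2 to 5 genes were called for genotype on chow in females, 0 to 4 with SC-435 in female KO mice, 2 to 5 in male KO mice and 1 to 3 for genotype on SC-435 in females. Between the sexes, 0 to 1 were called in WT mice on chow, 1 to 2 in KO mice on chow, 1 to 4 in WT mice on SC-435 and 5 to 6 in KO mice on SC-435. Log2 fold changes whose sign turned ran, with SC-435 in females, from -0.0121 to 0.1336 for *Slc27a2* in KO mice and, in WT mice, from -0.0248 to 0.0922 for *Hsd17b4*, -0.0498 to 0.0477 for *Acot8* and -0.0987 to 0.0843 for *Slc27a2*. In males, *Amacr* ran from -0.4002 to 0.0788 for genotype on chow and from -0.0111 to 0.1164 with SC-435 in KO mice. With SC-435 in male WT mice, *Acox2* ran from -0.1742 to 0.2403, *Amacr* from -0.4405 to 0.0661, *Slc27a5* from -0.264 to 0.1466, *Acot8* from -0.3525 to 0.3006 and *Scp2* from -0.0593 to 0.021. For genotype on SC-435 in males, *Acox2* ran from -0.1686 to 0.055, *Slc27a5* from -0.0402 to 0.0176, *Baat* from -0.2093 to 0.0011 and *Abcd3* from -0.054 to 0.1524. Between the sexes in WT mice on chow, *Slc27a5* ran from -0.3307 to 0.1006, *Baat* from -0.12 to 0.0086, *Acot8* from -0.4069 to 0.2622 and *Abcd3* from -0.053 to 0.1613. In KO mice on chow, *Acot8* ran from -0.098 to 0.0092, *Baat* from -0.2039 to 0.0137 and *Abcd3* from -0.228 to 0.0183, and in WT mice on SC-435 *Abcd3* ran from -0.1542 to 0.048 and *Slc27a2* from -0.1057 to 0.0546.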
